A study of Mus musculus with 12 samples.

Results

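The genes described here are 10 genes that mark the bone-forming and cartilage-forming lineages: *Runx1*, *Runx2*, *Sp7*, *Alpl*, *Bglap*, *Spp1*, *Ibsp*, *Sox9*, *Acan*, and *Comp*. They were chosen by symbol with earlier results of these data known, and each was found as 1 row among the 51490 genes of the gene-level count table. RNA-seq was performed on immortalized mouse embryonic palatal mesenchyme (iMEPM) cells, a line from a male *Cdkn2a*-/- embryo. The cells carried a lentiviral scramble shRNA (scramble) or an shRNA against the 3’ UTR of *Srsf3*, which encodes a splicing factor (shSrsf3), and were sorted for high GFP and selected with puromycin. Each shRNA is represented by 1 stable line, so an effect of the shRNA and a difference between these lines cannot be told apart. After serum starvation, cells received no ligand (-PDGF-AA) or PDGF-AA at 10 ng/mL over 1 hr (+PDGF-AA), with 3 biological replicates in each of the 4 groups and 12 samples in all.

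The mesenchyme of the palatal shelves derives from the cranial neural crest, and part of it condenses and differentiates into the bone of the palate. *Runx2* is the transcription factor required for the osteoblast lineage, and *Sp7* (osterix) acts after it in committed precursors. Alkaline phosphatase (*Alpl*) marks the phase of matrix maturation, while osteopontin (*Spp1*), bone sialoprotein (*Ibsp*), and osteocalcin (*Bglap*) are matrix proteins, the last of these a marker of mature osteoblasts. *Sox9* is the transcription factor required for chondrocytes, and aggrecan (*Acan*) and cartilage oligomeric matrix protein (*Comp*) belong to the cartilage matrix. *Runx1* is a relative of *Runx2* that is expressed in skeletal precursors as well as in blood.

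The osteocalcin locus on mouse chromosome 3 holds 3 near-identical copies, and the assignment of reads among them depends on few bases. In GRCm39, *Bglap* lies at chr3:88290808-88291771, *Bglap2* at chr3:88285043-88286060, and *Bglap3* at chr3:88275923-88280052, all on the minus strand. Over 288 coding bases, *Bglap* differed from *Bglap2* at 4 bases (98.6% identity) and from *Bglap3* at 13 bases (95.5% identity). Of all 31-base sequences in the annotated transcripts of *Bglap*, 62.9% also occurred in transcripts of other genes. This proportion was 86.7% for *Bglap2* and 18.2% for *Bglap3*. The first 30 coding bases are shown since they hold bases by which *Bglap* can be told from both other copies, and bases at which the 3 copies are not all alike are in capitals.
Bglap: atgaggaccAtctTtctgctcactctgctg
Bglap2: atgaggaccCtctCtctgctcactctgctg
Bglap3: atgaggaccCtctCtctgctcactctgctg
Coding bases 182 to 211 are shown since they hold bases by which *Bglap3* can be told from the others.
Bglap: tggagcccacccgggagcAGtgtgagcttA
Bglap2: tggagcccacccgggagcAGtgtgagcttA
Bglap3: tggagcccacccgggagcTAtgtgagcttG
The counts of the individual copies are therefore uncertain, and their sum is given below beside them. The lower proportion of *Bglap3* was taken over 3767 such sequences, of which 684 were shared. For *Bglap*, 370 of 588 were shared, and for *Bglap2*, 429 of 495. Among the other 9 genes, the shared proportion of 31-base sequences was 8.97% for *Spp1*, all of it with the gene model *Gm42793*, 2.09% for *Alpl*, and at most 1.16% for the rest.

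The promoters of the 10 genes were searched, on both strands, for the RUNX core TGTGGT (read as ACCACA on the other strand) and the SOX core AACAAT from 250 bases before to 50 bases after the annotated start of the canonical transcript. These letters occurred in 15.3% and 10.5%, respectively, of the 21738 protein-coding promoters searched. The RUNX core was found in the windows of *Runx1* and *Bglap*, and the SOX core in that of *Sp7*. Each match is shown with flanking bases from GRCm39 on the minus strand, the strand of all of these genes, and with the core in capitals.
Runx1, chr16:92623253-92623282: gttgttcctcaaACCACAaataacaacagg
Bglap, chr3:88291888-88291917: ccgcaatcacctACCACAgcatcctttggg
Sp7, chr15:102275715-102275744: ggtggctaaatgAACAATaagtctccatca
These matches describe the sequence, and nothing is drawn from them about binding.

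The library totals were between 30958966 and 76123359 counts, with the lowest in replicate 3 of shSrsf3 +PDGF-AA. Scramble samples stood apart by their mapping rate: in each pair of replicates with 1 of the 3 samples of lowest mapping rate (replicates 1 and 2 of unstimulated and replicate 2 of stimulated scramble cells) and 1 other sample, counts differed with a chi-square per degree of freedom of 16.5 to 32.6, against at most 8.56 in all other replicate pairs. Of the 51490 genes, 15037 passed the filter on low counts and were tested with edgeR's quasi-likelihood test in 1 model, with Benjamini-Hochberg adjustment over all of these. Levels are given as CPM, the counts scaled to library size with the trimmed mean of M-values. The threshold for a call was an adjusted p of 0.05. The targeted gene, *Srsf3*, was at 207, 199, and 212 CPM in scramble and 162, 164, and 161 CPM in shSrsf3 samples without ligand. With ligand, it was at 221, 215, and 231 CPM in scramble and 164, 161, and 169.6 CPM in shSrsf3 samples. The log2 fold change between shSrsf3 and scramble was -0.34 (SE 0.0379, adjusted p = 7.95e-06 from edgeR) without and -0.43 (SE 0.0380, adjusted p = 9.54e-07 from edgeR) with ligand. Markers of palatal mesenchyme were present, with 11 of 13 tested and the homeobox gene *Prrx1* at 405 to 527 CPM, while *Tbx22* of the palate, *Myod1* of muscle, and *Sox10* and *Foxd3* of neural crest glia had no count in any sample.

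*Sox9* was abundant in iMEPM cells and *Runx1* and *Runx2* were at a middle level (above 44.3% and 47.8% of tested genes), while *Acan*, *Bglap*, and *Ibsp* were near or below the limit of detection. To compare genes, counts were divided by the length of the canonical transcript and scaled to a common total, as TPM. *Sox9* was highest, with 109 ± 7.64 TPM in scramble -PDGF-AA samples (SD, n = 3), above the mean level of 87.5% of the tested genes when averaged over all samples. *Runx2* followed at 14.3 ± 0.236 TPM and *Runx1* at 12.1 ± 0.589 TPM in the same group. *Spp1* was at 5.59 ± 1.13 TPM, *Comp* at 1.75 ± 0.368 TPM, and *Sp7* at 0.450 ± 0.0885 TPM. In these scramble -PDGF-AA samples, the ranges of *Runx2* (14.1 to 14.5 TPM), *Runx1* (11.7 to 12.7 TPM), *Spp1* (4.76 to 6.88 TPM), and *Comp* (1.36 to 2.09 TPM) did not overlap one another. *Alpl*, at 0.356 ± 0.134 TPM, had a range of 0.213 to 0.480 TPM that overlapped that of *Sp7*, at 0.351 to 0.520 TPM. *Acan* was at 0.0554 ± 0.0396 TPM and *Bglap* at 0.0406 ± 0.0704 TPM, so these neighbors did not differ beyond their spread. *Ibsp* had no count in this group.

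**Figure D1:**
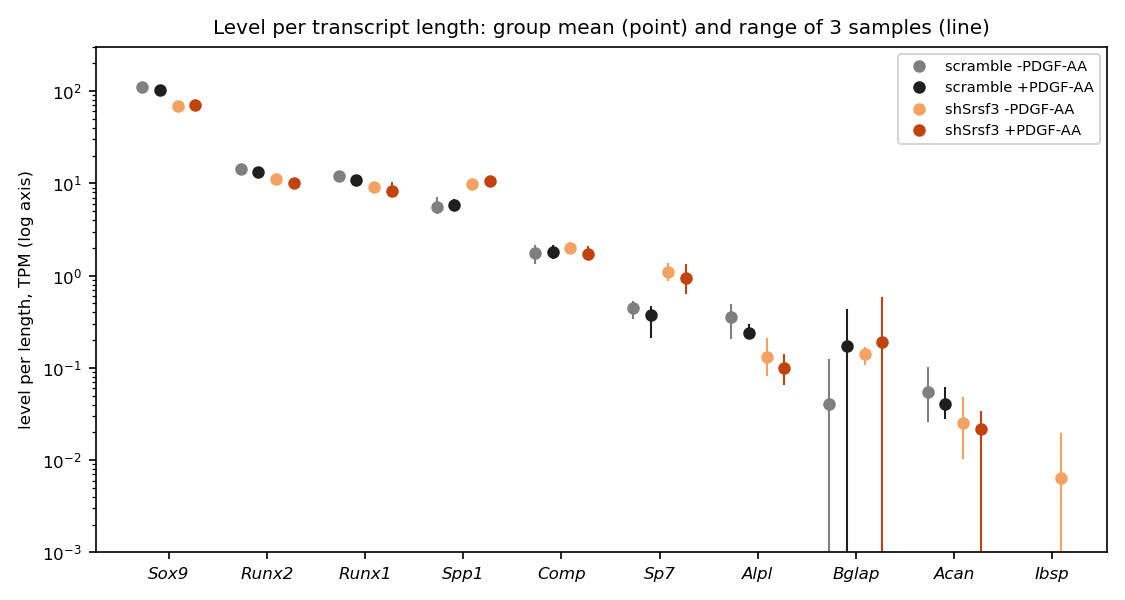
Level per transcript length (TPM, log axis) of the 10 genes, ordered by their mean over all 12 samples, with the group mean as a point and the range of 3 samples as a line. Lines that reach the lower edge include a sample with no count, and groups with no count at all (*Ibsp* in 3 of 4 groups) are not drawn. *Sox9* lies at 68.6 to 109 TPM in the group means, and *Spp1* moves from below *Runx1* in scramble samples to overlap with it in shSrsf3 samples.

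The order of the genes was not the same in both lines. In shSrsf3 -PDGF-AA samples, *Spp1* was at 9.62 to 10.2 TPM, above the range in scramble samples and overlapping that of *Runx1*, at 8.48 to 10.1 TPM. In shSrsf3 +PDGF-AA samples, *Spp1* was at 9.95 to 11.4 TPM and overlapped *Runx2*, at 9.89 to 10.5 TPM. *Sp7*, at 0.888 to 1.33 TPM in shSrsf3 -PDGF-AA samples, no longer overlapped *Alpl*, at 0.0844 to 0.205 TPM. With the length of all annotated exons in place of the canonical transcript, *Spp1* ranked above *Runx1* over all samples, and the other genes kept their ranks.

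Between shSrsf3 and scramble samples, the lineage genes did not move in 1 direction. The transcription factors that open each lineage, *Runx2* and *Sox9*, were lower in shSrsf3 samples, as was *Runx1*, while *Sp7* and *Spp1* were higher. Without ligand, 6 of the 7 tested genes were called, 2 higher and 4 lower, where 45.9% of all tested genes were called, 22.2% of them higher and 23.7% lower as shares of all tested genes. With ligand, 5 of 7 were called, 2 higher and 3 lower, where 41% of all tested genes were called (20.3% higher, 20.7% lower). With a 2-fold minimum, 2 genes (*Sp7* and *Alpl*) were called without ligand and 1 (*Sp7*) with ligand, where 5.75% and 5.42% of all tested genes were called. The samples of the compared groups did not overlap for 6 of 7 genes in both comparisons, where 53.3% and 52.6% of all tested genes did not overlap. The median log2 fold change of the 7 genes was -0.39 without and -0.38 with ligand, beside -0.02 and -0.01 over all tested genes. *Bglap*, *Ibsp*, and *Acan* did not pass the filter. As all of the samples are bulk RNA, fewer cells that express a gene and less RNA per cell cannot be told apart in any of these comparisons.

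**Figure D2:**
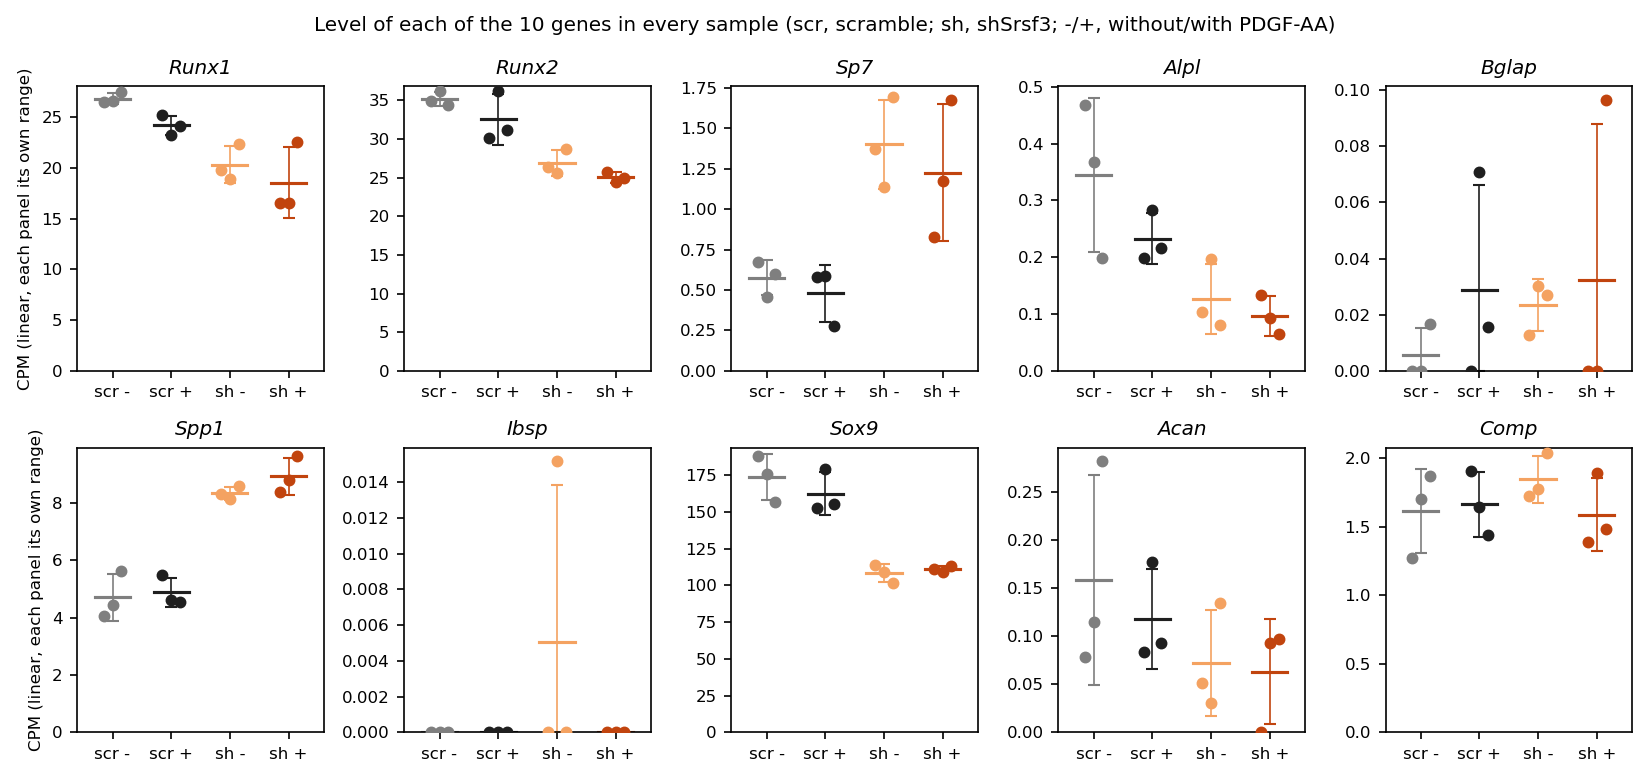
CPM of the 10 genes in each of the 12 samples (linear axes from 0, each panel with its own range), with the group mean as a horizontal line and the SD of 3 samples as a bar that is cut off at 0. Both shSrsf3 groups lie below both scramble groups for *Runx1*, *Runx2*, *Sox9*, and *Alpl*, above them for *Sp7* and *Spp1*, and among them for *Comp*.

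*Runx2* (chr17:44806874-45125684, minus strand) had 34.9, 36.2, and 34.4 CPM in scramble and 26.4, 25.6, and 28.8 CPM in shSrsf3 samples without ligand. With ligand, *Runx2* had 30.1, 36.3, and 31.2 CPM in scramble and 25.8, 24.4, and 24.9 CPM in shSrsf3 samples. All 6 shSrsf3 samples were thus lower than all 6 scramble samples. The log2 fold change was -0.39 (SE 0.0633, adjusted p = 2.24e-04 from edgeR) without and -0.38 (SE 0.0650, adjusted p = 4.04e-04 from edgeR) with ligand.

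*Runx1* (chr16:92398354-92623037, minus strand) fell by a similar extent. It had 26.4, 26.6, and 27.4 CPM in scramble and 19.8, 18.9, and 22.3 CPM in shSrsf3 samples without ligand. With ligand, the values were 25.2, 23.3, and 24.1 CPM in scramble and 16.5, 16.6, and 22.6 CPM in shSrsf3 samples, replicate 3 of the latter standing closest to scramble. In the fit, the log2 fold change was -0.41 (SE 0.0931, adjusted p = 0.00288 from edgeR) without and -0.39 (SE 0.0965, adjusted p = 0.00555 from edgeR) with ligand.

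*Sp7* (chr15:102265038-102279370, minus strand), whose product is a zinc finger factor of committed osteoblast precursors, rose in shSrsf3 samples. Its counts were 26, 20, and 36 in scramble and 106, 75, and 63 in shSrsf3 samples without ligand, or 0.675, 0.460, and 0.597 CPM and 1.37, 1.14, and 1.69 CPM. With ligand, its counts were 35, 33, and 18 in scramble and 31, 38, and 52 in shSrsf3 samples, or 0.581, 0.585, and 0.278 CPM and 0.828, 1.18, and 1.67 CPM. Scaled to depth, every shSrsf3 sample was above every scramble sample. Its log2 fold change was 1.26 (2.40-fold, SE 0.311, adjusted p = 0.00470 from edgeR) without and 1.34 (2.54-fold, SE 0.323, adjusted p = 0.00443 from edgeR) with ligand. The level remained low, below that of *Runx2* in every sample. Over the 12 samples, the tested genes with a mean count of at least 50 whose log2 CPM was most like that of *Sp7* included *Dlg4* (Pearson's r = 0.96) and *Camkk2* (0.95), among 12262 genes. Among the other lineage genes, r with *Sp7* was highest for *Spp1* (0.87) and lowest for *Sox9* (-0.80). These values describe 12 samples of 2 lines, and the difference between the lines enters each of them.

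*Sox9* (chr11:112673009-112678586, plus strand) was the most abundant of the 10 genes and had the lowest adjusted p among them without ligand. It had 188, 176, and 157 CPM in scramble and 114, 109, and 102 CPM in shSrsf3 samples without ligand. With ligand, it had 153, 179, and 155 CPM in scramble and 111, 109, and 113 CPM in shSrsf3 samples. The gap between the highest shSrsf3 and the lowest scramble sample exceeded the range within either shSrsf3 group. The log2 fold change was -0.68 (SE 0.0708, adjusted p = 4.29e-06 from edgeR) without and -0.55 (SE 0.0710, adjusted p = 3.54e-05 from edgeR) with ligand. Per length, *Sox9* stood at 8.35, 7.51, and 7.06 times the level of *Runx2* in scramble and at 6.69, 6.61, and 5.46 times in shSrsf3 samples without ligand. With ligand, these ratios were 7.85, 7.65, and 7.69 in scramble and 6.67, 6.93, and 7.03 in shSrsf3 samples. The ratios of the lines did not overlap in either condition, but this difference was not tested.

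**Figure D3:**
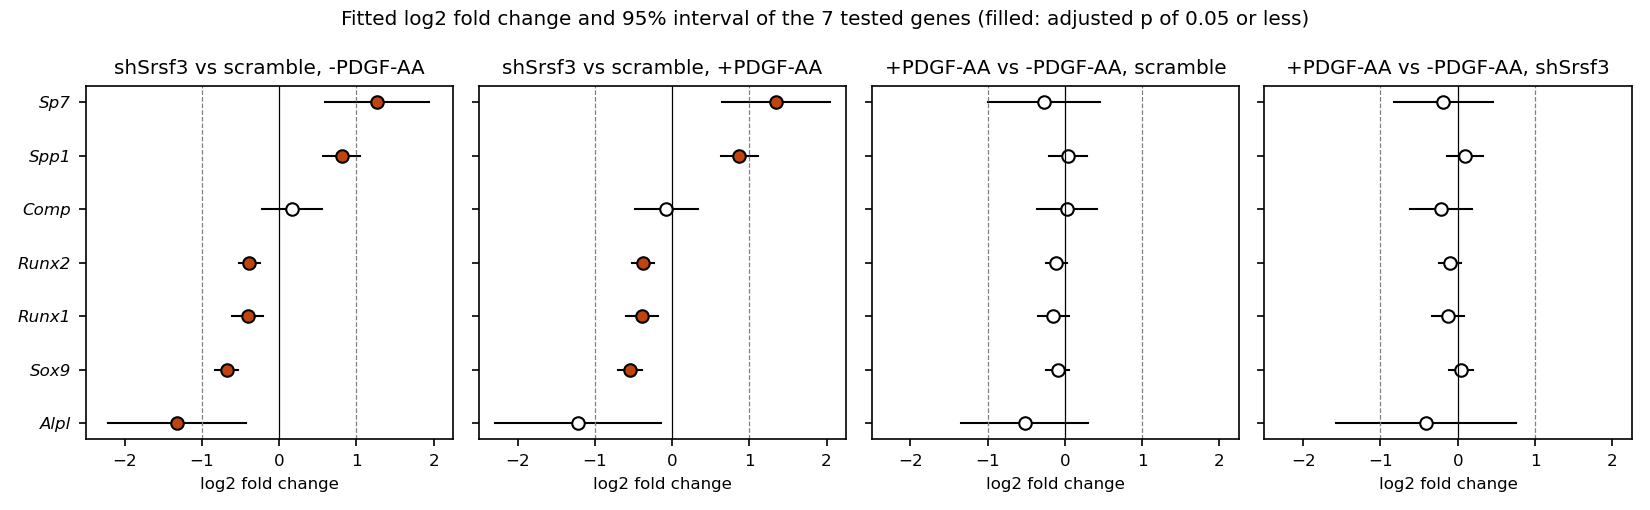
Fitted log2 fold change (points) and its 95% interval (lines) for the 7 tested genes in the 4 comparisons, with filled points for calls and dashed lines at a 2-fold change. *Sp7* and *Spp1* lie above 0, and *Runx1*, *Runx2*, and *Sox9* below 0, in both comparisons of shSrsf3 with scramble, and no point is filled in the comparisons of the ligand.

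*Spp1* (chr5:104582165-104589235, plus strand) encodes osteopontin, a secreted phosphoprotein of mineralized matrix that many other cells also make. It had 4.08, 4.44, and 5.64 CPM in scramble and 8.33, 8.14, and 8.59 CPM in shSrsf3 samples without ligand. With ligand, it had 5.48, 4.63, and 4.54 CPM in scramble and 8.39, 8.80, and 9.66 CPM in shSrsf3 samples. The groups were far apart, with no shSrsf3 sample below 8.14 CPM. In the fit, the log2 fold change was 0.81 (1.75-fold, SE 0.111, adjusted p = 5.34e-05 from edgeR) without and 0.87 (1.83-fold, SE 0.111, adjusted p = 3.02e-05 from edgeR) with ligand.

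*Alpl* (chr4:137469039-137524102, minus strand) encodes tissue-nonspecific alkaline phosphatase, which frees phosphate for mineral. Its counts were 18, 16, and 12 in scramble and 8, 13, and 3 in shSrsf3 samples without ligand, and 12, 16, and 14 in scramble and 5, 3, and 2 in shSrsf3 samples with ligand. Pooled over 3 samples, its level was 0.323 CPM (exact 95% Poisson interval 0.237 to 0.431) in scramble and 0.133 CPM (0.0853 to 0.198) in shSrsf3 samples without ligand. With ligand, the pooled levels were 0.232 CPM (0.167 to 0.313) and 0.0992 CPM (0.0476 to 0.182). These intervals cover counting error only. Its log2 fold change was -1.33 (SE 0.414, adjusted p = 0.0183 from edgeR) without ligand, a call, and -1.21 (SE 0.498, adjusted p = 0.0677 from edgeR) with ligand, not a call. In scaled levels, the groups did not overlap in either condition, but without ligand the lowest scramble sample (0.199 CPM) and the highest shSrsf3 sample (0.197 CPM) nearly met. The call without ligand was lost when replicate 1 or 2 of scramble -PDGF-AA, or replicate 1 or 3 of shSrsf3 -PDGF-AA, was left out (adjusted p = 0.0567 to 0.0843 from edgeR). Without the 3 samples of lowest mapping rate, which left 1 sample of scramble -PDGF-AA, the log2 fold change was -0.59. A call with ligand was gained when replicate 3 of scramble -PDGF-AA was left out (adjusted p = 0.0469 from edgeR), so that the status of *Alpl* rests on single libraries.

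*Bglap* (osteocalcin) had expected counts of 0, 0, and 1.19 in scramble and 1.43, 1.61, and 1 in shSrsf3 samples without ligand, and of 0, 4, and 1 in scramble and 0, 0, and 3 in shSrsf3 samples with ligand. Of its 12 samples, 5 had no count, and no fold change is given. *Bglap2* had 0, 0, and 3.81 in scramble and 14.6, 3.39, and 5.80 in shSrsf3 samples without ligand, and 2.28, 0, and 0 in scramble and 4, 3, and 0 in shSrsf3 samples with ligand. *Bglap3* was detected in all 12 samples, at 5, 1, and 4 rounded counts in scramble and 9, 14, and 4 in shSrsf3 samples without ligand, and at 7, 9, and 18 in scramble and 4, 4, and 5 in shSrsf3 samples with ligand. Summed over the 3 copies, the counts were 5, 1, and 9 in scramble and 25, 19, and 11 in shSrsf3 samples without ligand, and 9, 13, and 19 in scramble and 8, 7, and 8 in shSrsf3 samples with ligand. In a fit of all genes with a count in any sample and this sum in place of the copies, an alternative added after the data were seen, the log2 fold change between shSrsf3 and scramble was 1.52 (SE 0.513, adjusted p = 0.0142 from edgeR) without ligand. With ligand, it was 0.01 (SE 0.497, adjusted p = 1 from edgeR). The difference between these effects did not pass the test (-1.51, SE 0.713, adjusted p = 0.776 from edgeR). Without the filter on low counts, 218 of 27138 genes were called for such a difference, against 2 of 15037 in the main fit. For the shRNA without ligand, 6993 were called without the filter, against 6899 in the main fit. Adjusted p values without the filter are therefore not directly comparable with those of the main fit.

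**Figure D4:**
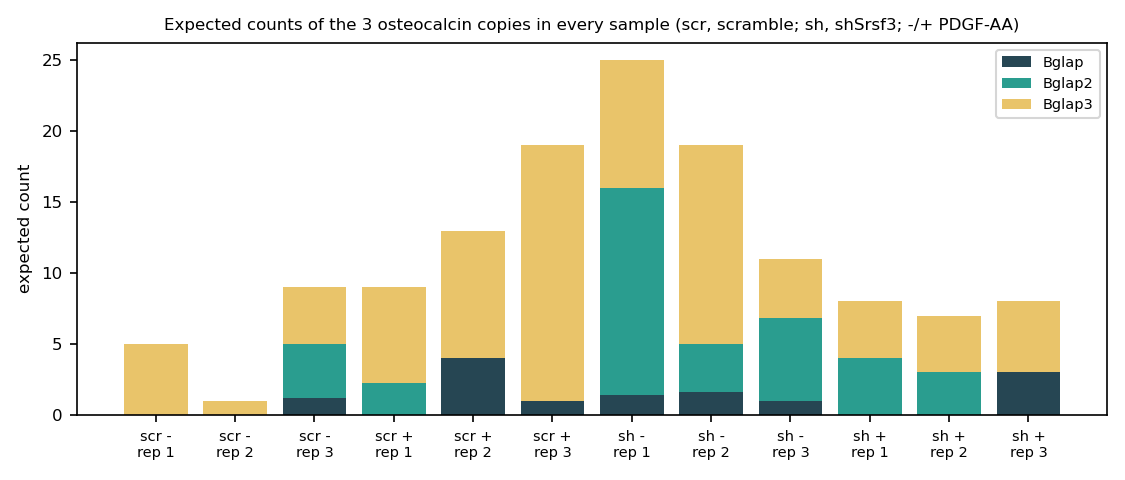
Expected counts of *Bglap*, *Bglap2*, and *Bglap3* in each of the 12 samples, stacked so that the height of a bar (linear axis from 0) is their sum. The sums lie between 1 and 25 counts without scaling to depth, and *Bglap* itself contributes at most 4 counts to any sample.

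*Ibsp* (chr5:104447037-104459338, plus strand), which encodes bone sialoprotein, had 1 count in replicate 2 of shSrsf3 -PDGF-AA and none in the other 11 samples. A group total of 0 allows up to 0.0211 CPM in scramble cells without ligand, 0.0165 CPM in scramble cells with ligand, and 0.0298 CPM in shSrsf3 cells with ligand (3 counts per group, counting error only). No difference was detectable at this depth. *Ibsp* and *Spp1* lie in a cluster on chromosome 5 with *Dspp*, *Dmp1*, and *Mepe*, whose products are phosphoproteins of bone and dentin, and the levels of these neighbors differed widely. *Mepe* had no count in any sample and *Dspp* at most 2 counts, while *Dmp1* changed more than any of the 10 genes, as described below.

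*Acan* (chr7:78702964-78764847, plus strand), the main proteoglycan of cartilage, had counts of 3, 5, and 17 in scramble and 4, 2, and 5 in shSrsf3 samples without ligand, and of 5, 10, and 6 in scramble and 0, 3, and 3 in shSrsf3 samples with ligand. The samples overlapped in both conditions. Pooled, its level was 0.176 CPM (exact 95% Poisson interval 0.114 to 0.259) in scramble and 0.0610 CPM (0.0305 to 0.109) in shSrsf3 samples without ligand, with 17 of the 25 counts of the scramble group in replicate 3. With ligand, it was 0.116 CPM (0.0717 to 0.177) and 0.0595 CPM (0.0218 to 0.130). Fitted without the filter, the log2 fold change was -1.34 (SE 0.690, adjusted p = 0.161 from edgeR) without and -0.93 (SE 0.787, adjusted p = 0.519 from edgeR) with ligand. In the alternatives in which *Acan* was tested with at least 2 samples per group, the adjusted p from edgeR or DESeq2 was 0.0702 to 0.265 without and 0.348 to 0.820 with ligand. Without the 3 samples of lowest mapping rate, which left 1 sample of scramble -PDGF-AA, its log2 fold change without ligand was -2.12.

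*Comp* (chr8:70826192-70834716, plus strand), a pentameric protein of cartilage and tendon matrix, was the tested gene without a call between shSrsf3 and scramble in either condition. It had 1.27, 1.70, and 1.87 CPM in scramble and 1.72, 1.78, and 2.04 CPM in shSrsf3 samples without ligand, and 1.91, 1.65, and 1.44 CPM in scramble and 1.39, 1.89, and 1.48 CPM in shSrsf3 samples with ligand. All 4 groups overlapped. The log2 fold change was 0.17 (95% interval -0.22 to 0.56, adjusted p = 0.469 from edgeR) without and -0.07 (95% interval -0.48 to 0.33, adjusted p = 0.794 from edgeR) with ligand.

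With PDGF-AA against without, no lineage gene that could be tested passed the test. None of the 7 tested genes was called in scramble cells, where 4.04% of all tested genes were called, or in shSrsf3 cells, where 0.565% were. These background counts rested on single libraries. In scramble cells, the number of genes called was 608 with all samples, rose to 1472 when replicate 3 of the unstimulated scramble group was dropped, and fell to 243 when replicate 3 of the stimulated one was. In shSrsf3 cells, it was 85 with all samples, and ranged from 23 (replicate 1 of the unstimulated shSrsf3 group dropped) to 168 (replicate 3 of the unstimulated scramble group dropped). With the 2-fold minimum, 0.2% and 0.0399% of all tested genes were called. None of the 7 reached an unadjusted p under 0.05 in either line with edgeR, and DESeq2 and limma also called 0 of them. In scramble cells, the log2 fold changes ranged from -0.52 for *Alpl* (SE 0.381) to 0.04 for *Spp1* (SE 0.114), with adjusted p values from edgeR from 0.373 to 0.956. In shSrsf3 cells, they ranged from -0.41 for *Alpl* (SE 0.541) to 0.10 for *Spp1* (SE 0.108), with adjusted p values from edgeR from 0.702 to 0.938. Samples with and without ligand did not overlap for 1 of 7 genes (*Runx1*, lower with ligand) in scramble cells, where 18.8% of all tested genes did not overlap, and for 0 of 7 in shSrsf3 cells, where 18% did not. For the abundant regulators, the intervals were narrow. Upon stimulation, the 95% interval of the log2 fold change in scramble cells was -0.25 to 0.06 for *Sox9* and -0.25 to 0.02 for *Runx2*. For *Sp7* and *Alpl*, the intervals in scramble cells, -0.99 to 0.46 and -1.34 to 0.30, were wide. *Runx2* was called in scramble cells (log2 fold change -0.20, adjusted p = 0.0429 from edgeR) when replicate 2 of scramble +PDGF-AA was left out.

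The effects of the shRNA without and with ligand were also compared with each other, by the interaction term of the model. None of the 7 genes was called, where 0.0133% of all tested genes were called, none reached an unadjusted p under 0.05 with edgeR, and DESeq2 and limma also called 0. The largest interaction in size was that of *Comp* (-0.24, SE 0.260, adjusted p = 0.905 from edgeR), and that of *Sox9* was 0.13 (SE 0.100, adjusted p = 0.882 from edgeR). For *Sp7*, it was 0.08 with a wide 95% interval of -0.88 to 1.04.

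The wider sets of lineage genes were examined in 4 lists, written with earlier results of these data known, which also hold the 10 genes above. The lists were not split by whether a gene promotes or restrains its lineage. Their counts and medians therefore give no direction of differentiation. Beside the counts that follow, 22.2% of all tested genes were higher and 23.7% lower without ligand, and 20.3% higher and 20.7% lower with ligand. Of 16 regulators of osteoblasts, all were tested, and 4 were higher and 8 lower in shSrsf3 samples without ligand, and 3 higher and 8 lower with ligand. Without *Runx1*, *Runx2*, and *Sp7*, 13 remained, of which 3 were higher and 6 lower without ligand and 2 higher and 6 lower with ligand. The median log2 fold change was -0.22 without and -0.21 with ligand, beside -0.02 and -0.01 over all tested genes. With the 2-fold minimum, *Sp7* was called in both conditions and *Msx1*, a homeobox gene of palatal mesenchyme, with ligand. *Msx1* fell from 1.70 ± 0.144 to 0.897 ± 0.113 CPM without ligand (means and SD of n = 3, a log2 change of -0.93, adjusted p = 0.00159 from edgeR) and from 1.55 ± 0.268 to 0.719 ± 0.152 CPM with ligand (-1.10, adjusted p = 8.78e-04 from edgeR). The most abundant regulators were *Atf4*, a stress-responsive factor needed in osteoblasts, and *Cbfb*, which encodes the partner that stabilizes RUNX proteins on DNA. *Atf4* changed by -0.27 (SE 0.0481, adjusted p = 4.86e-04 from edgeR) without and -0.23 (SE 0.0481, adjusted p = 0.00161 from edgeR) with ligand. *Cbfb* changed by -0.19 in both conditions (SE 0.0422 and 0.0423, adjusted p = 0.00215 and 0.00296 from edgeR).

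Of 22 genes of bone matrix and mineralization, 21 were in the table and 14 were tested. Without ligand, 5 were higher and 5 lower in shSrsf3 samples, with a median log2 fold change of -0.01, and with ligand 3 were higher and 4 lower, with a median of -0.19. Without *Alpl* and *Spp1*, 12 remained, of which 4 were higher and 4 lower without ligand and 2 higher and 4 lower with ligand. *Dmp1*, which encodes an acidic matrix phosphoprotein best known from osteocytes and dentin, rose most. It went from 0.114 ± 0.0615 to 1.75 ± 0.279 CPM without ligand (means and SD of n = 3, a log2 change of 3.85, SE 0.437, adjusted p = 9.46e-06 from edgeR) and from 0.129 ± 0.0849 to 1.78 ± 0.642 CPM with ligand (3.77, SE 0.421, adjusted p = 8.76e-06 from edgeR). Its counts ran from 2 to 128 over the 12 samples. The chains of type I collagen, the main protein of bone and also of mesenchyme in general, were the most abundant genes of this list. *Col1a2* changed by -0.37 (SE 0.0419, adjusted p = 9.46e-06 from edgeR) without and -0.40 (SE 0.0419, adjusted p = 5.37e-06 from edgeR) with ligand. *Col1a1* did not pass the test, at -0.08 (SE 0.0356, adjusted p = 0.0721 from edgeR) and -0.05 (SE 0.0356, adjusted p = 0.292 from edgeR), but was called with no filter in both conditions (adjusted p = 0.00216 and 0.0424 from edgeR) and without ligand when replicate 3 of shSrsf3 -PDGF-AA or of shSrsf3 +PDGF-AA was left out (0.0499 and 0.0487). The fit with no filter gave *Col1a1* a smaller SE than the main fit, 0.0242 in both conditions.

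Of 13 regulators of chondrocytes, 8 were tested. Without ligand, 1 was higher and 4 lower in shSrsf3 samples, with a median log2 fold change of -0.41, and with ligand 1 was higher and 3 lower, with a median of -0.30. Without *Sox9*, 7 remained, of which 1 was higher and 3 lower without ligand and 1 higher and 2 lower with ligand. Both parts of the parathyroid hormone-related protein axis, which holds chondrocytes in the proliferating state, were lower. The hormone gene *Pthlh* fell from 2.34 ± 0.257 to 0.818 ± 0.217 CPM without ligand (means and SD of n = 3, a log2 change of -1.48, adjusted p = 2.93e-04 from edgeR) and from 2.38 ± 0.558 to 0.731 ± 0.258 CPM with ligand (-1.71, adjusted p = 1.80e-04 from edgeR). The receptor gene *Pth1r* fell from 12.9 ± 0.320 to 5.49 ± 0.325 CPM without ligand (-1.24, adjusted p = 8.51e-08 from edgeR) and from 11.6 ± 0.836 to 5.34 ± 0.737 CPM with ligand (-1.12, adjusted p = 4.03e-07 from edgeR). *Sox6*, a partner of *Sox9* with 1 to 17 counts per sample, was lower without ligand (-1.31, SE 0.442, adjusted p = 0.0263 from edgeR) and did not pass with ligand (-0.39, SE 0.557, adjusted p = 0.615 from edgeR). Its call was lost without replicate 1 of scramble -PDGF-AA or without replicate 2 or 3 of shSrsf3 -PDGF-AA, and with DESeq2 (adjusted p = 0.0657). *Arid5b*, a coactivator of *Sox9*, did not pass the test, at -0.14 (SE 0.0945, adjusted p = 0.260 from edgeR) and -0.22 (SE 0.0947, adjusted p = 0.0803 from edgeR). It was called with no filter in both conditions (adjusted p = 0.0107 and 4.06e-06 from edgeR) and with replicate 3 of scramble -PDGF-AA left out in both (0.0454 and 0.0325), and with ligand also with replicate 1 of scramble +PDGF-AA (0.0411) or of shSrsf3 +PDGF-AA (0.0498) left out. The fit with no filter gave *Arid5b* a smaller SE than the main fit, 0.0453 without and 0.0454 with ligand.

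**Figure D5:**
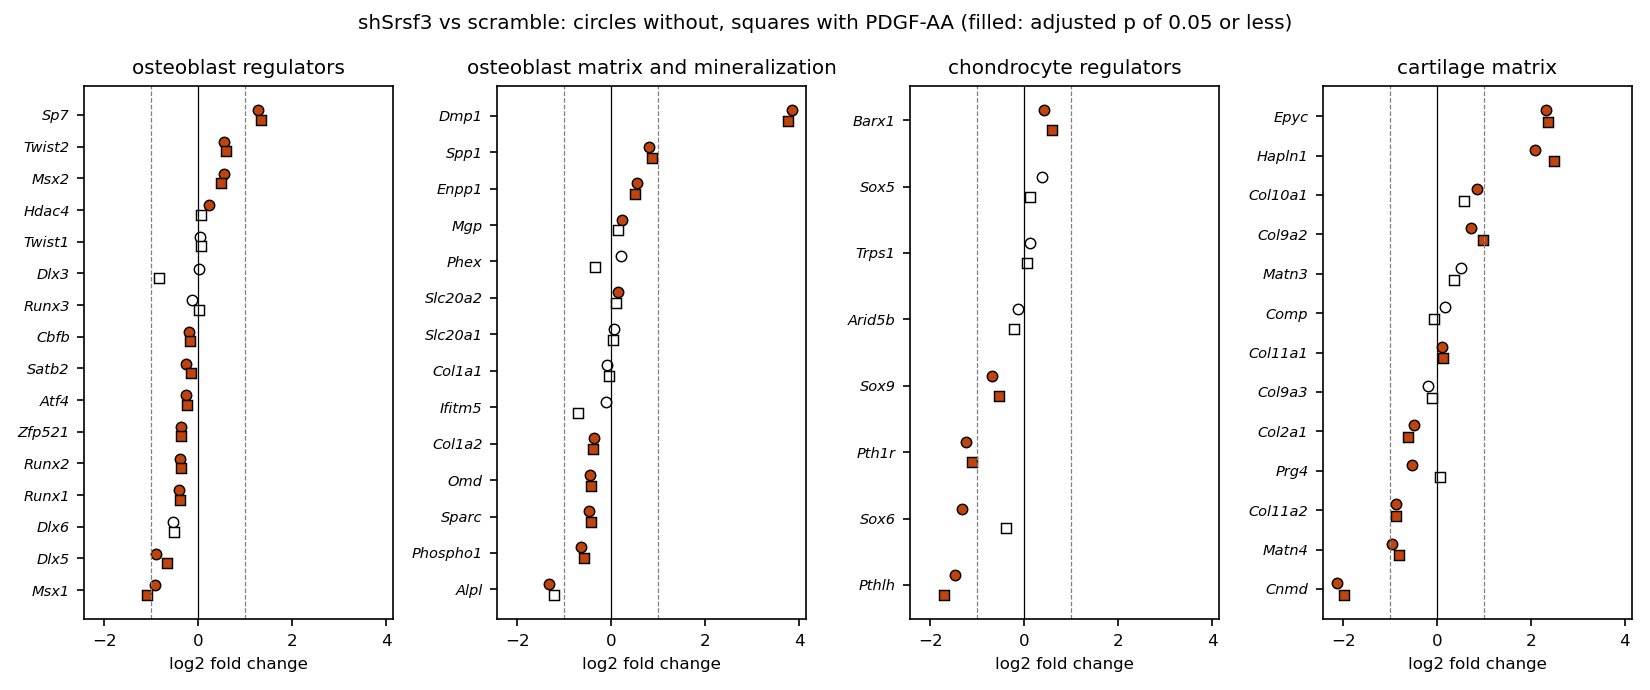
Log2 fold change between shSrsf3 and scramble samples of every tested gene of the 4 lists, with circles for -PDGF-AA and squares for +PDGF-AA, filled for calls, and dashed lines at a 2-fold change. Each list holds genes on both sides of 0, from *Dmp1* at 3.85 to *Cnmd* at -2.13 without ligand.

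Of 20 genes of cartilage matrix, 13 were tested, and 5 were higher and 5 lower without ligand, and 4 higher and 4 lower with ligand, with medians of 0.12 and 0.07. *Comp*, which was not called, is 1 of the 13. *Cnmd*, which encodes chondromodulin, an inhibitor of vessel growth in cartilage, fell from 1.78 ± 0.304 to 0.412 ± 0.0763 CPM without ligand (means and SD of n = 3, a log2 change of -2.13, adjusted p = 7.90e-06 from edgeR) and from 1.77 ± 0.199 to 0.438 ± 0.138 CPM with ligand (-1.99, adjusted p = 2.52e-05 from edgeR). *Epyc*, a small proteoglycan of growth plate cartilage, rose from 0.178 ± 0.0759 to 0.926 ± 0.171 CPM without ligand (2.32, adjusted p = 3.52e-05 from edgeR) and from 0.167 ± 0.0445 to 0.869 ± 0.0832 CPM with ligand (2.37, adjusted p = 3.82e-05 from edgeR). *Hapln1*, the link protein that binds aggrecan to hyaluronan, was higher by 2.09 (SE 0.673, adjusted p = 0.0215 from edgeR) without and 2.49 (SE 0.560, adjusted p = 0.00290 from edgeR) with ligand, at no more than 10 counts in any sample. Its call without ligand was lost without replicate 1 or 3 of scramble -PDGF-AA or replicate 2 of shSrsf3 -PDGF-AA, and with DESeq2 (adjusted p = 0.0587). *Col2a1*, the collagen of cartilage and a target of *Sox9*, was abundant and changed by -0.48 (SE 0.0782, adjusted p = 2.13e-04 from edgeR) without and -0.61 (SE 0.0787, adjusted p = 3.31e-05 from edgeR) with ligand. *Col11a1* changed by 0.12 in both conditions (SE 0.0436 in both, adjusted p = 0.0426 and 0.0416 from edgeR). These calls of *Col11a1* were lost with the replicate block (adjusted p = 0.0544 and 0.0550 from edgeR). The call without ligand was also lost with only the 2 groups compared (0.0614) and the call with ligand with upper-quartile factors (0.0502), and with single libraries left out the adjusted p rose to 0.159 without ligand (shSrsf3 -PDGF-AA replicate 3) and 0.161 with ligand (shSrsf3 +PDGF-AA replicate 2).

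With ligand against without, the genes of these lists that were called are named here, although chosen after their values were seen. In scramble cells, 1 of 16 tested osteoblast regulators was called higher and 1 lower, and 1 of 14 genes of bone matrix and mineralization higher. In shSrsf3 cells, 1 of these 14 was called. None of 8 chondrocyte regulators or 13 genes of cartilage matrix was called in either line. Of all tested genes, 4.04% were called in scramble and 0.565% in shSrsf3 cells. In scramble cells, *Dlx3* was higher (log2 fold change 1.76, SE 0.437, adjusted p = 0.0391 from edgeR), *Dlx5* lower (-0.43, SE 0.0848, adjusted p = 0.0116 from edgeR), and *Slc20a1*, a phosphate transporter gene, higher (0.33, SE 0.0505, adjusted p = 0.00250 from edgeR). *Dlx3* and *Dlx5* are homeobox genes of jaw and bone. *Dlx3* was near the limit of detection, with 2 to 29 counts per sample. Its level in scramble cells was 0.0984 ± 0.00604 CPM without and 0.338 ± 0.0954 CPM with ligand (means and SD of n = 3). In shSrsf3 cells, *Slc20a1* was higher (0.30, SE 0.0507, adjusted p = 0.0130 from edgeR). These ligand calls of list genes were not run through the alternatives. No gene of the lists was called for the interaction.

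Markers of other cell types were summed per sample, and several of these sums moved with the shRNA. The sum of 4 tendon markers was 41.4 to 45.1 CPM in scramble and 30.4 to 34.5 CPM in shSrsf3 samples, that of 4 endothelial markers, nearly all of it *Tek*, 30.5 to 34.6 and 19.1 to 22.6 CPM, and that of 5 epithelial markers 4.75 to 6.15 and 2.86 to 4.15 CPM. The sum of 6 markers of leukocytes and osteoclasts, most of it from *Ctsk*, was 49.5 to 54.4 CPM in scramble and 65.1 to 68.0 CPM in shSrsf3 samples, with *Adgre1* and *Calcr* at 0 in all samples. The sums of 13 palatal mesenchyme (22156 to 23670.5 CPM), 5 adipocyte (9.50 to 10.99 CPM), 4 muscle (at most 0.0518 CPM), and 4 glial markers (2.14 to 3.22 CPM) overlapped between the lines. The genes within a list did not all move with its sum. Of the 4 endothelial markers, *Cdh5* (log2 fold change 2.33 without and 2.82 with ligand) and *Kdr* (1.24 and 0.91) were called higher while *Tek* was lower. Of the 5 epithelial markers, 3 were tested, and only *Cdh1* was called (-2.24 without and -1.95 with ligand). The palatal sum is almost all *Col1a1* and *Vim*, and of its 11 tested markers 7 were called lower and 2 higher without ligand, and 5 lower and 2 higher with ligand. Of all tested genes, 23.7% were called lower and 22.2% higher without ligand, and 20.7% lower and 20.3% higher with ligand. Among the palatal markers, *Pdgfra* changed by -0.53 and -0.36, *Pax9* by -0.76 and -0.70, and *Shox2* by 1.76 and 2.04. Single genes of these lists were present in every sample, with *Tek* at 16.4 to 33.8 CPM, *Ctsk* at 48.1 to 65.1 CPM, and *Trp63* at 2.08 to 3.49 CPM. The part of these markers in the results for the lineage genes was not tested.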

How the data were processed

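RNA-seq was performed on 12 samples of iMEPM cells, 3 in each of 4 groups taken from the labels. Per the study's methods, the authors trimmed reads with BBDuk, quantified them with Salmon 1.4.0 against GENCODE M26 (GRCm39), and summarized them per gene with tximport. The deposited values are expected counts, of which 16.25% were not whole, and were rounded here. The scaling in tximport is not given in the sources used here.

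Genes were filtered with filterByExpr (minimum count 10), scaled by TMM, and tested with the quasi-likelihood test of edgeR 4.0.16 in 1 model with a mean per group, with Benjamini-Hochberg adjustment over 15037 genes and a threshold of 0.05. SE was derived from the log2 fold change and F statistic. On simulated data, 80.5% of 200 genes changed 2-fold between shSrsf3 and scramble without ligand were recovered among 14820 tested. Levels per length used GENCODE M39 on the same build, a later annotation than that of the counts, and sequences were read from GRCm39. Alternatives were relative log expression and upper-quartile factors, no filter, a replicate block, DESeq2 1.42.0, limma 3.58.1 voom, each sample left out, the 3 samples of lowest mapping rate left out (by the study's own rates, replicates 1 and 2 of unstimulated and replicate 2 of stimulated scramble cells), and only the 2 groups compared. Leaving out these 3 samples left 1 sample of scramble -PDGF-AA. Equal depth and the summed *Bglap* copies were added after the data were seen.

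The members and lists were chosen with earlier results of these data known. Named genes were the 10 lineage genes, the *Bglap* copies, *Srsf3*, and, of each list, every gene called with the 2-fold minimum in either shRNA comparison and at most 2 others of highest mean level. Likeness was computed for members called with the 2-fold minimum in both. One gene that this rule gives is not reported here. Exceptions are marked. Total counts were 30958966 to 76123359 per sample, and Poisson intervals and floors cover counting error only, while intervals of log2 fold changes come from the fitted SE. Replicates were compared, and no pair agreed within sampling noise. The p values measure the spread among samples of 1 line per shRNA.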

Additional observations from a re-analysis of the deposited data

How the results depend on the processing

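The calls of *Runx1*, *Runx2*, *Sp7*, *Spp1*, and *Sox9* between shSrsf3 and scramble kept their direction and their side of the threshold in every alternative run. The number of genes called with a 2-fold minimum without ligand was 1 to 2 with single samples left out. With ligand it was 2 with the replicate block and 1 to 2 with single samples left out. Leaving out the 3 samples of lowest mapping rate left only replicate 3 in the scramble -PDGF-AA group, so effect sizes alone are given for it. There, *Alpl* without ligand was at -0.59 (range with single samples left out -1.79 to -1.05). With the replicate block, *Alpl* with ligand was at -1.25 (adjusted p = 0.0474 from edgeR). Of 18 same-number pairs, 2 correlated above 0.1 (-0.14 to 0.20), while pairs of different numbers ranged from -0.34 to 0.24. With these overlapping ranges, the correlations do not decide whether the numbers pair the samples. Without the 3 samples of lowest mapping rate, the log2 fold changes without ligand were -0.14 for *Cbfb*, -1.11 for *Sox6*, 2.78 for *Hapln1*, and 0.12 for *Col11a1*. In scramble cells, 0 to 1 genes were called for the ligand with single samples left out.

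Values that changed sign were mostly those near 0. Without the 3 samples of lowest mapping rate, *Comp* was at -0.037 and *Arid5b* at 0.072 for the shRNA without ligand, *Alpl* at 0.063, *Spp1* at -0.17, and *Comp* at -0.17 for the ligand in scramble cells, and *Alpl* at -0.47 for the interaction. At equal depth, *Spp1* was at -0.0032 for the ligand in scramble and *Alpl* at 0.014 in shSrsf3 cells. With single samples left out, the ranges were -0.22 to 0.039 for *Comp* and -0.73 to 0.13 for *Sox6* (shRNA with ligand), -0.43 to 0.016 for *Sp7*, -0.056 to 0.21 for *Spp1*, and -0.10 to 0.17 for *Comp* (ligand, scramble), -0.47 to 0.039 for *Sp7*, -0.72 to 0.054 for *Alpl*, and -0.0037 to 0.076 for *Sox9* (ligand, shSrsf3), and -0.14 to 0.10 for *Runx1*, -0.038 to 0.10 for *Runx2*, -0.21 to 0.30 for *Sp7*, -0.20 to 0.58 for *Alpl*, and -0.11 to 0.15 for *Spp1* (interaction). With the length of all exons, the mean over 12 samples went from 87.6 to 146.6 TPM for *Sox9*, 12.2 to 14.9 for *Runx2*, 10.1 to 7.82 for *Runx1*, 7.95 to 10.4 for *Spp1*, 1.82 to 2.48 for *Comp*, and 0.718 to 1.07 for *Sp7*. The causes were not tested. Depth limits *Bglap*, *Ibsp*, and *Acan*, which did not pass the filter, and *Alpl*.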
